A study of Mus musculus with 2 samples.

Results

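The Gli transcription factors of the mouse, Gli1, Gli2 and Gli3, were followed through the accessible chromatin assigned to them in motor neuron progenitors made from embryonic stem (ES) cells. An interval was taken when its nearest protein-coding transcription start site (TSS) belonged to a Gli gene, or when it overlapped the body of one, by the GENCODE M21 annotation on mm10. The rule gave 74 of 119502 intervals, of which 2 belonged to Gli1, 37 to Gli2 and 35 to Gli3. The assay was ATAC-seq, which uses the transposase Tn5 to cut and tag open DNA. The ES cell line carried the red fluorescent protein mKate2 as a reporter of Olig2, the gene that defines the motor neuron progenitor (pMN) domain, and live mKate2-positive cells were sorted at day 5. From day 3 the cells had received 100 nM retinoic acid (RA) and 100 nM SAG, which activates Smoothened and so Sonic hedgehog (Shh) signalling, and 50000 cells entered each transposition. Both libraries belonged to this 1 group, so every value below describes 1 condition and no comparison of treatments was possible. Nothing stated that the 2 replicates came from separate cultures, and the spread between them may be technical. Besides pMN progenitors, the gate takes in newly formed motor neurons and some cells positive for both OLIG2 and NKX2.2, the latter a p3 factor.

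The GLI proteins are the zinc finger factors through which the hedgehog pathway reaches the genome. In the absence of a ligand, GLI2 and GLI3 are held by SUFU, phosphorylated by protein kinase A and trimmed or degraded, and GLI3 is the main source of the truncated repressor. Once Smoothened is active, full-length GLI2 is the main activator, and Gli1, which has no repressor form, is transcribed as a target of the pathway. In the neural tube this balance sets the ventral progenitor domains, pMN among them.

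The sequences under the strongest signal are shown first, since the later results refer to them. They are windows of 300 bp centred on the 3 densest Gli2 intervals outside a TSS and on the 2 densest Gli3 ones, read on the plus strand of mm10, where Gli2 lies on the minus strand and Gli3 on the plus strand. Gli2 window A, chr1:119033777-119034076, lay in intron 1, window B, chr1:118911004-118911303, in intron 2, and window C, chr1:119047846-119048145, in intron 1 close to the promoter. Gli3 window D, chr13:15624603-15624902, and window E, chr13:15621098-15621397, both lay in intron 4. Capitals mark matches, on either strand, to the motifs searched: the GLI core ACCACCCA, the FOX core TGTTTAC, the SOX core ACAATG, the OLIG2-type E-boxes CATATG and CAGATG, and the homeodomain core TAATTA.
Gli2 window A: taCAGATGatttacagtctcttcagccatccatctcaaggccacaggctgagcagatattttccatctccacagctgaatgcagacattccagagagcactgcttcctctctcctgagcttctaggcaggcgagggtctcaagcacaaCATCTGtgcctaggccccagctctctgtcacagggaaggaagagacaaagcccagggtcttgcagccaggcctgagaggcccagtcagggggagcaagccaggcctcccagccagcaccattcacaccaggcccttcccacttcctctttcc
Gli2 window B: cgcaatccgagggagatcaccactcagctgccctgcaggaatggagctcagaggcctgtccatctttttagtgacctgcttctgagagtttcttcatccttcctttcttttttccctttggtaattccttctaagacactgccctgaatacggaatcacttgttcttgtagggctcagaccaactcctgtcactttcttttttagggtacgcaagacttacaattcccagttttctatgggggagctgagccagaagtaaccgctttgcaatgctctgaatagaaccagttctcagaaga
Gli2 window C: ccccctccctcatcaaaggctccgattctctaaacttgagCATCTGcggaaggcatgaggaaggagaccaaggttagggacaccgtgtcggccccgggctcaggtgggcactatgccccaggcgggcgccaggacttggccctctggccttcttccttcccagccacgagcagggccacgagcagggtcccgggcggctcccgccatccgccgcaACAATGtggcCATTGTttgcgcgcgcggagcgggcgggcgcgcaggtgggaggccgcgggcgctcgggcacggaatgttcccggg
Gli3 window D: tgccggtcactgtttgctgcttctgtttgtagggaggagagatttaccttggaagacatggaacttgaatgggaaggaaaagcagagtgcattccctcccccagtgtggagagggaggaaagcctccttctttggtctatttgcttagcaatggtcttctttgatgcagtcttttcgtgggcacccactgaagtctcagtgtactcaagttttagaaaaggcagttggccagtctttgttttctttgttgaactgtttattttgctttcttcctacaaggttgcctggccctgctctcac
Gli3 window E: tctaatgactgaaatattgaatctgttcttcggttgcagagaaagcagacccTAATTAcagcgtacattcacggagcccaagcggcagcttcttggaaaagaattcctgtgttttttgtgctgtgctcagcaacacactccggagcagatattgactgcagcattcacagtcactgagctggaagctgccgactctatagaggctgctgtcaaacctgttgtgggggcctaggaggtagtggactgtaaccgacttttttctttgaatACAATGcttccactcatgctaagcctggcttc
Window A held 2 E-boxes, at positions 3 and 149 counted from its first base. Window C held an E-box at position 41 and 2 SOX cores, at positions 216 and 226, that face each other on opposite strands. Window E held a homeodomain core at position 53 and a SOX core at position 269, and windows B and D held none of the motifs. The interval of window E is only 199 bp long, so that window takes in flanking bases, and its SOX core lay outside the interval. In the windows of all 119502 intervals, an E-box was found in 30.4%, a SOX core in 21.3%, a homeodomain core in 7.00%, a FOX core in 4.38% and the GLI core in 1.74%.

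The promoters are shown because each Gli gene had its TSS inside a single accessible interval. RefSeq promoter entries (GRCm38.p6) matched 2 of the 3 genes, Gli2 and Gli3. The 250 bases before the RefSeq start are given in the direction of transcription, from chr1:119053620-119053869 on the minus strand for Gli2 and from chr13:15463473-15463722 on the plus strand for Gli3, with capitals as above.
Gli2 promoter: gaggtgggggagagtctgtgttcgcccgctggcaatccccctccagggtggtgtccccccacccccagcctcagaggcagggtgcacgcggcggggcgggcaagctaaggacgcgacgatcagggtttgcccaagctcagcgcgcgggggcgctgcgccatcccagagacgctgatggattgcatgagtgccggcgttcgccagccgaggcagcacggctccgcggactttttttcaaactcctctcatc
Gli3 promoter: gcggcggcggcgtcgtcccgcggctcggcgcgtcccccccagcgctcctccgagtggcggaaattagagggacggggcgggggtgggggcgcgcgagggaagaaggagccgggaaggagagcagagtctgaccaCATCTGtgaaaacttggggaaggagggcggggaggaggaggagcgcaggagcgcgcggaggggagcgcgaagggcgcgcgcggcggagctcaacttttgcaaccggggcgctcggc
The Gli3 stretch held 1 E-box, at position 135, and the Gli2 stretch held no match. Among the same 250 bases of 32851 RefSeq promoters, 17.3% held an E-box and 1.28% the GLI core.

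All 3 promoters were accessible, and Gli3 had the densest of them. Density is the normalised count divided by the interval length, in counts per kb. The Gli3 TSS interval, chr13:15462743-15464801, held 2849 counts in replicate 1 and 2807 in replicate 2, or 1384 and 1363 normalised counts per kb. This interval also overlapped the start of another annotated gene, Gm6556, so its signal cannot be assigned to Gli3 alone. The Gli1 TSS interval, chr10:127338925-127342597, held 3627 and 3658 counts, or 988 and 996 per kb. The Gli2 TSS interval, chr1:119052097-119054377, held 2109 and 2097 counts, or 925 and 919 per kb. The replicates of each gene lay closer together than the genes did, and no value of one gene overlapped those of another. The means were 1373 ± 15.2 for Gli3, 992 ± 5.39 for Gli1 and 922 ± 4.25 for Gli2 (SD, n = 2), so that Gli3 stood 1.39 ± 0.0229 times above Gli1 and Gli1 1.08 ± 0.0108 times above Gli2. With 1 group of 2 libraries no test of these differences between genes was run.

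The order of the promoters changed with the unit. Taken as normalised counts per interval, Gli1 came first with 3642, Gli3 second with 2828 and Gli2 last with 2103. The Gli1 interval was the widest of the 3, at 3673 bp against 2281 bp for Gli2 and 2059 bp for Gli3, and was wider than the TSS intervals of 97.8% of the coding genes that had one. It covered exons 1 and 2 of the 13-exon Gli1 transcript, with all of the 0.24 kb first intron and part of the second. Set against all 21924 coding genes, those without a TSS interval counted as 0, the promoter density was higher than in 86.0% of genes for Gli3, 73.0% for Gli1 and 69.9% for Gli2. Among the 14623 coding genes with a TSS interval, the median was 853 per kb and the shares below were 79.0%, 59.5% and 54.9%. In bulk libraries, fewer cells with an open site and a less open site in every cell cannot be told apart.

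**Figure D1:**
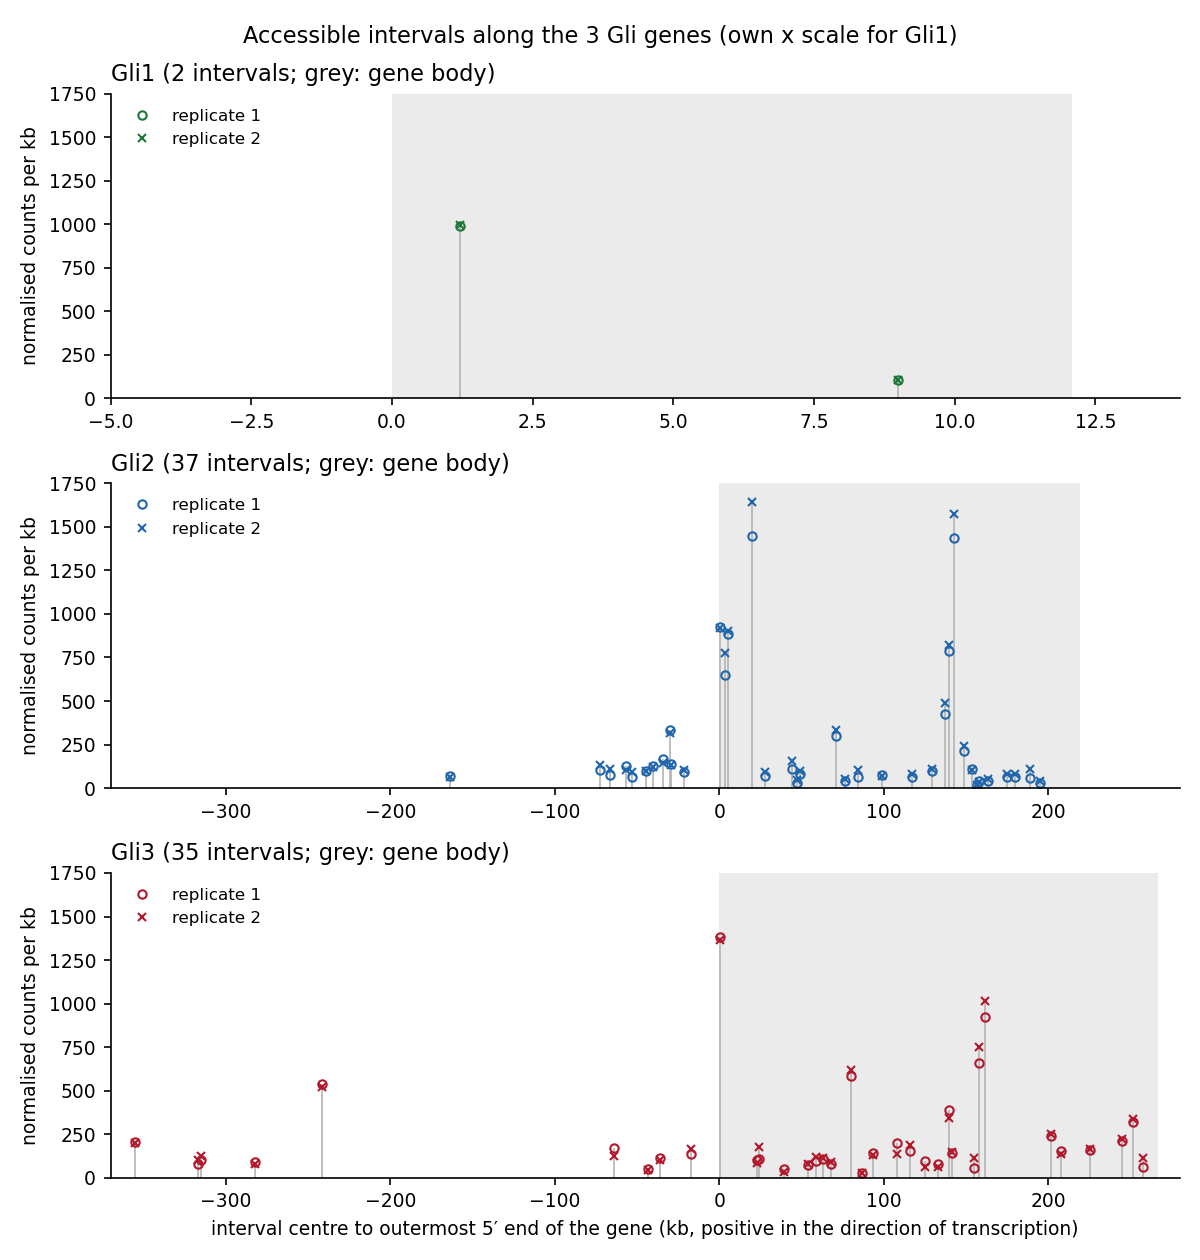
Normalised counts per kb (y axis) of the intervals assigned to each Gli gene, by the distance of the interval centre from the outermost 5′ end of the gene (x axis, kb, with a narrower scale for Gli1). Circles are replicate 1, crosses replicate 2 and grey the gene body; Gli2 has 2 intronic intervals above its promoter, while no distal interval of Gli3 reaches its promoter at 1373 per kb.

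The 3 genes differed far more in what surrounded the promoter. Gli1 is a compact gene of 12.1 kb (ENSMUSG00000025407.7, chr10:127329882-127341974, minus strand) and had 1 interval beside its promoter. Gli2 spans 219 kb (ENSMUSG00000048402.14, chr1:118834132-119053619, minus strand) and had 36 distal intervals, meaning intervals that overlapped no coding TSS, of which 25 lay in the gene body and 11 upstream. Gli3 spans 267 kb (ENSMUSG00000021318.15, chr13:15463235-15730026, plus strand) and had 34 distal intervals, of which 25 lay in the gene body and 9 upstream. Every upstream interval lay nearer to the start of another annotated gene, outside the coding set used here. With the nearest TSS of any annotated gene, or the gene body, 26 intervals remained at Gli2 and 26 at Gli3. The upstream intervals thus cannot be assigned to these genes alone. The number of assigned intervals was higher than in 98.3% of coding genes for Gli2, 98.1% for Gli3 and 30.2% for Gli1, where the median gene had 3. Length enters this count. Among the 1036 coding genes of 150 to 350 kb, the median was 5.86 intervals per 100 kb of gene body, Gli2 had 11.8 and stood above 89.8% of them, and Gli3 had 9.75 and stood above 81.9%.

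Summed over the locus, Gli2 had 9081 normalised counts in replicate 1 and 9737 in replicate 2, Gli3 had 8528 and 8702, and Gli1 had 3791 and 3815. The replicate values of the genes did not overlap. The promoter held 95.8% ± 0.0778 of these counts at Gli1, 32.8% ± 0.832 at Gli3 and 22.4% ± 1.21 at Gli2 (SD, n = 2), against a median of 28.0% over the 1466 coding genes with at least 20 intervals. All 3 genes thus had more counts than most loci, Gli1 through its promoter and the other two mainly through distal intervals. The mean locus count exceeded that of 90.0% of coding genes for Gli1, 99.0% for Gli2 and 98.7% for Gli3.

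Gli2, the main activator of the family, had the densest distal intervals of the 3 genes. The highest lay in intron 1 at chr1:119033482-119034372, which holds window A, 19.7 kb inside the gene. It had 1290 counts in replicate 1 and 1465 in replicate 2, or 1448 and 1644 per kb. The second lay in intron 2 at chr1:118910675-118911634, around window B and 142 kb from the 5′ end, with 1377 and 1511 counts, or 1435 and 1573 per kb. In both libraries these 2 intervals were denser than the Gli2 promoter, and they ranked above 99.5% and 99.4% of all 104632 distal intervals. Next came chr1:119047283-119048710 in intron 1, which had 1259 and 1288 counts, or 882 and 902 per kb, with both values below the promoter.

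The interval of window C was unlike the other Gli2 distal intervals in base composition. That window had a GC content of 68.7% and a ratio of observed to expected CpG of 0.792. The median distal window had 48.0% and 0.205 over all intervals, 52.7% and 0.193 at Gli2, and the median TSS window had 65.0% and 0.773. Its CpG ratio was the highest among the Gli2 distal windows and above that of 98.7% of all distal windows. It lay 4.63 kb from the nearest annotated TSS, of any gene type.

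The dense Gli2 intervals fell into a few stretches. Of the 36 distal intervals, 6 were denser than the 90th percentile of all distal intervals, 398 per kb, and all 6 were in introns 1 and 2. The stretch chr1:118910675-118916993 in intron 2 joined 3 of them within 6.32 kb and held 23.9% of the locus counts, more than the promoter. The stretch chr1:119047283-119050390 joined 2 of them and held 16.8%, and the single interval of window A held 14.6%. Intron 1, of 51.1 kb, had 7 distal intervals, and intron 2, of 112 kb, had 13. Introns 3 and 5 had 2 each, and a further interval overlapped coding exon 3. From chr1:118834132 to chr1:118858148, the last 24.0 kb of the gene, there was none. The lowest Gli2 interval, also in intron 2, had 15 and 11 counts, or a mean of 17.9 ± 3.90 per kb.

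Gli3, the main repressor, had its strongest distal signal in introns 2 and 4. The densest interval, chr13:15624257-15625250 around window D, lay 162 kb inside the gene and had 920 counts in replicate 1 and 1008 in replicate 2, or 926 and 1014 per kb. The next, chr13:15621149-15621347 around window E, had 131 and 149 counts over 199 bp, or 659 and 748 per kb. The interval chr13:15541606-15545033 in intron 2 was 3428 bp wide and had 2012 and 2127 counts, or 587 and 620 per kb. All 3 were below the Gli3 promoter in both libraries. They stood above 98.0%, 96.0% and 94.8% of all distal intervals.

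The wide interval of intron 2 held 24.0% of the Gli3 locus counts and the pair in intron 4, within 4.10 kb, held 12.8%. Another Gli3 interval above 398 per kb, chr13:15221357-15221808, lay 242 kb upstream of the gene, with 244 and 236 counts, or 540 and 522 per kb. It was named after its values were seen. Intron 1, of 13.9 kb, had no distal interval, introns 2 and 3 had 8 each, intron 4 had 3, intron 10 had 4 and intron 13 had 1, and 1 interval overlapped coding exon 12. The longest stretch of the gene body without an interval was 39.5 kb, from chr13:15625251 to chr13:15664706, and began where the densest interval ended. The most distant upstream interval of Gli3 was centred 355 kb from the gene, and that of Gli2 164 kb from it. The lowest Gli3 interval, in intron 3, had 6 counts in each library.

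Gli1 had only the distal interval chr10:127332232-127333730, across coding exons 11 and 12, with 162 and 159 counts, or 108 and 106 per kb. This interval overlapped the annotated start of a non-coding gene, Gm47200, so its signal cannot be assigned to Gli1 alone. It stood above 42.2% of all distal intervals.

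By their median, the Gli3 distal intervals were near the level of all distal intervals, and the Gli2 ones were below it. Among coding genes with a distal interval, the median distal density was higher than in 28.0% for Gli2 and 48.3% for Gli3. The median distal density was 101 ± 6.98 per kb at Gli2 and 126 ± 3.96 at Gli3 (SD, n = 2), against 123 over all distal intervals. At Gli2 the replicates gave 95.6 and 105, at Gli3 123 and 129, and these medians did not overlap. Taken as counts per interval the order was reversed, with a median of 60.0 at Gli2 and 46.5 at Gli3. The 3 intervals with the most counts held 56.0% of all distal counts at Gli2 and 60.3% at Gli3. A density above the median TSS interval, 799 per kb, was reached by 4 of 36 distal intervals of Gli2, 1 of 34 of Gli3 and 3.16% of all distal intervals. The median length was 644 bp at Gli2, 392 bp at Gli3 and 463 bp over all distal intervals.

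**Figure D2:**
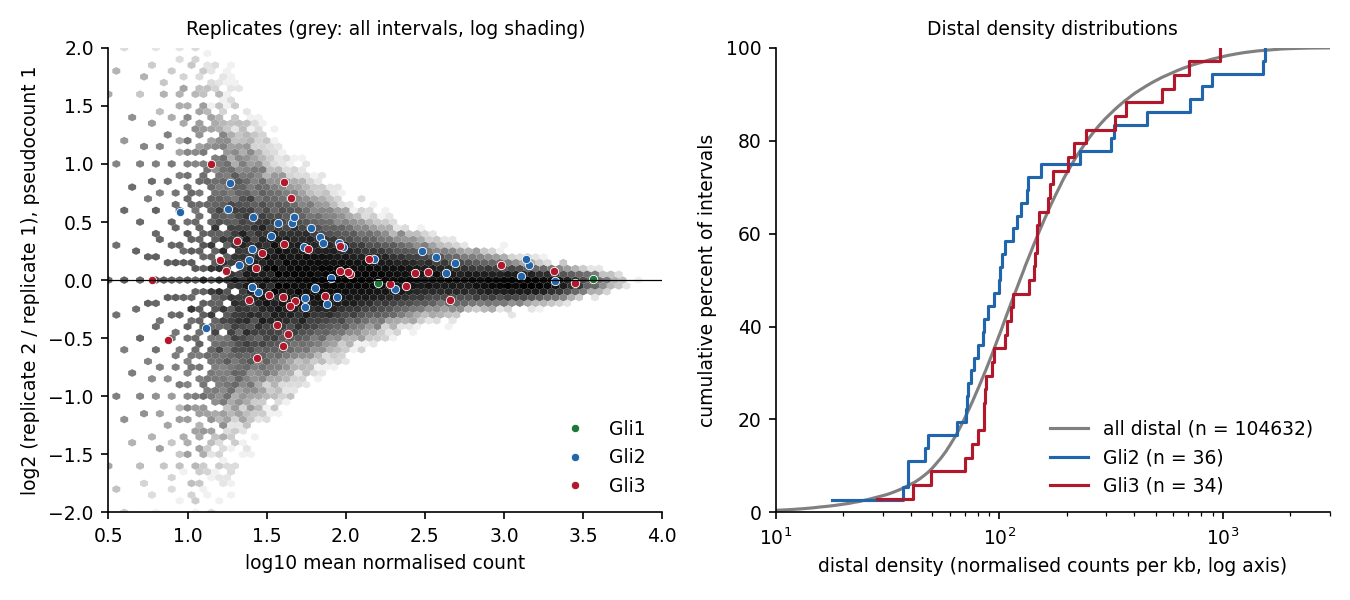
Left, log2 ratio of replicate 2 to replicate 1 (y axis) against the log10 mean normalised count (x axis) for all intervals (grey, log shading) and the Gli intervals (coloured points). Right, cumulative percent of distal intervals (y axis) by density in normalised counts per kb (x axis, log scale). The medians are 101 for Gli2 and 126 for Gli3 against 123 for all 104632 distal intervals, and Gli2 extends to 1546.

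The replicates were compared interval by interval by an exact binomial test (two-sided) on the pair of counts. It compares libraries and not conditions. After Benjamini-Hochberg adjustment over all intervals, 0 of 74 Gli intervals passed 0.01, as did 0% of all intervals, and the lowest adjusted p of a Gli interval in this exact test was 0.242. At an unadjusted p under 0.05 there were 6 of 74 Gli intervals, 3 of Gli2 and 3 of Gli3, against 8.39% of all intervals, a share like that of the Gli intervals (8.11%). With edgeR TMM scaling 6 intervals of the series passed 0.01 and 0 of them belonged to a Gli gene. Of the 23 Gli intervals whose mean normalised count was over 100, 0 were more than 2-fold apart, as were 0% of all 46369 intervals above that count.

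Small as they were, the replicate differences at Gli2 ran mostly one way. Replicate 2 was the higher in 26 of 36 Gli2 distal intervals and in 21 of the 25 within the gene body, against 50.0% of all intervals. That share includes TSS and weak intervals, and the share over distal or gene body intervals alone was not computed. The split into gene body and upstream was not planned. Neighbouring intervals of 1 locus in the same 2 libraries are not independent observations. Upstream of the gene it was the higher in 5 of 11. At Gli3 it was the higher in 19 of 34 distal intervals and at Gli1 in 0 of 1. The interval with the widest ratio among the Gli2 intervals over 100 counts was chr1:119049963-119050390 in intron 1, at 278 and 331 counts, a log2 ratio of 0.25. At the same threshold Gli3 had its widest ratio at window E, 0.18, and Gli1 at its distal interval, -0.03.

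Over the whole Gli2 locus the log2 ratio of replicate 2 to replicate 1 was 0.10, and over its distal intervals within the gene 0.15. It was 0.01 over the upstream intervals, where the 2 libraries were nearly level, and at the promoter replicate 1 was slightly the higher. Among the 1183 loci with over 5000 counts the ratios had an SD of 0.04, and the Gli2 locus lay above 98.6% of them. The Gli3 locus had a ratio of 0.03 and lay above 69.8%. Beside these values, the summed loci of the 6 p3 and floor plate markers had a log2 ratio of -0.03, of the 6 new neuron markers 0.02 and of the 7 pMN and shared progenitor markers 0.00. Distal intervals over 100 counts had a median log2 ratio of 0.02 both at a GC content of 50 to 60% and at 40 to 50%. The part of cell makeup or base composition in the Gli2 difference was not tested.

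**Figure D3:**
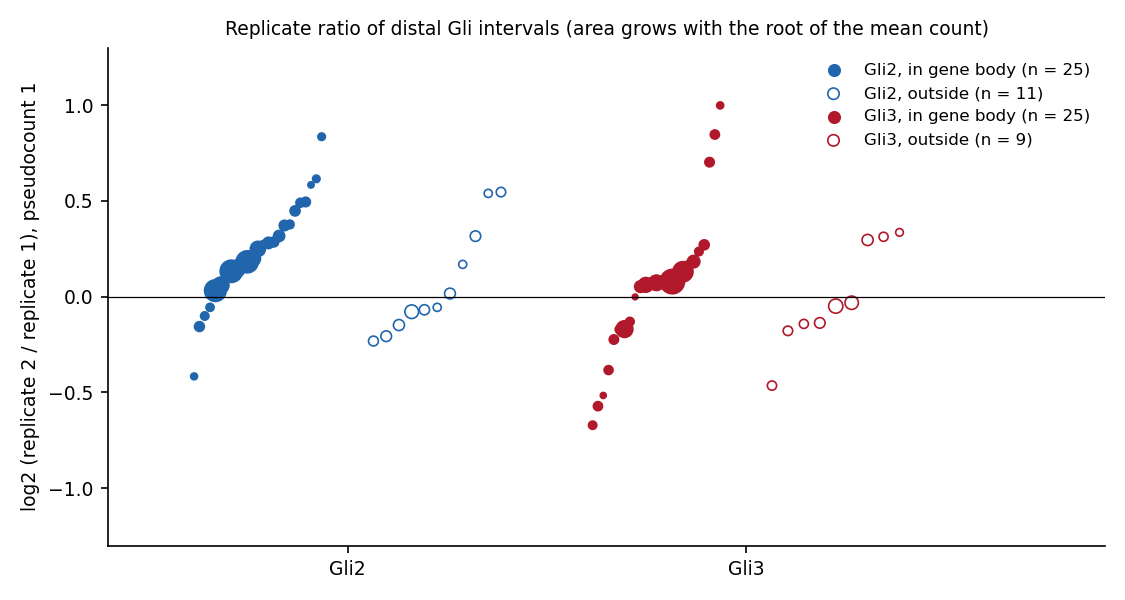
Log2 ratio of replicate 2 to replicate 1 (y axis, pseudocount 1) of each distal Gli2 and Gli3 interval, within the gene body (filled) and outside it (open), sorted within each group, with larger points for higher mean counts. Of the filled Gli2 points, 21 of 25 lie above 0, against 16 of 25 for Gli3, while 5 of 11 open Gli2 points and 3 of 9 open Gli3 points do.

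The motifs were then counted over all 74 Gli intervals. The GLI core was found in 0 of 74 windows and in 0 of 74 whole intervals, where 1.74% of all windows and 3.82% of all whole intervals held it. At shares this low, few or no matches would be found among 74 intervals, so the 0 does not set the Gli genes apart. Without its first base, as CCACCCA, a form added after the data were seen, it was found in 8 of 74 windows. That is 10.8%, against 8.26% of all windows. Among whole intervals it was found in 11 of 74, or 14.9%, against 17.4% of all. Those 11 included the TSS intervals of all 3 Gli genes, but in none of these did the match lie in the central window. These TSS intervals were wide, at 3673, 2281 and 2059 bp for Gli1, Gli2 and Gli3 against a median of 1212 bp. The share over TSS intervals alone was not computed. These counts describe letters in a window and say nothing of whether a GLI protein was bound.

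E-boxes were in 22 of 74 windows, 15 of Gli2 and 7 of Gli3. SOX cores were in 12, of which 10 belonged to Gli3 and 2 to Gli2. Windows around intervals shorter than 300 bp take in flanking bases, as at window E, whose SOX core lay outside its interval. A homeodomain core was in 5 windows, among them window E and the upstream Gli3 interval chr13:15398814-15399104. The FOX core was in 2 windows, the upstream Gli2 interval chr1:119106403-119106740, which had it 2 times, and chr13:15556597-15556835 in intron 3 of Gli3. The shares over the Gli windows were 29.7% for E-boxes, 16.2% for SOX cores, 6.76% for homeodomain cores and 2.70% for FOX cores. Pooled over the 3 genes, none exceeded the share over all windows. By gene the counts went both ways. E-boxes were in 15 of 37 Gli2 and 7 of 35 Gli3 windows, against 30.4% of all windows. SOX cores were in 2 of 37 and 10 of 35, against 21.3%. This difference between the genes was not tested. Gli1 windows held no match to any of the motifs.

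Read against the rest of the pathway, the 3 Gli promoters stood above the ligands, and Gli1 and Gli2 stood below most of the receptors. Of the 6 genes for hedgehog ligands and their release, 5 had a TSS interval, where 66.7% of all coding genes did, and none was denser than any Gli promoter. The range ran from Dhh, a ligand, at 254 ± 1.40 per kb to Scube2, which helps release ligand, at 596 ± 12.7 (SD, n = 2), and Shh itself had no TSS interval. The median of that list was 322 per kb with Shh counted as 0, against 487 over all coding genes counted in the same way. All 8 receptors and co-receptors had a TSS interval, with a median of 1171, from Boc, a co-receptor, at 831 ± 25.4 to Smo, the signal transducer upstream of the GLI proteins, at 1405 ± 0.782. Of these 8, 6 were denser than Gli1 and Gli2, and 1 was denser than Gli3.

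The regulators that modify or hold GLI proteins covered the widest range. Of 14 genes, 13 had a TSS interval, and the median was 1265 per kb, with the absent promoter counted as 0. Prkaca, a catalytic subunit of protein kinase A, was the highest at 4024 ± 24.5, and Prkacb, another such subunit, the lowest with an interval at 556 ± 33.7. Gpr161, a ciliary receptor that raises protein kinase A activity, had none. Of the 14, 6 were denser than Gli3 and 10 denser than Gli2. The related zinc finger genes of the Glis and Zic families all had a TSS interval, 8 of 8, with a median of 623, and Glis3 was the highest at 1424 ± 2.24. Of these 8, 3 were denser than Gli1 and Gli2 and 1 than Gli3.

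The list of 14 Shh response genes, which includes Gli1 itself and shares genes with the receptor list, had a TSS interval for each gene and a median of 944 per kb. Rab34, a small GTPase gene, was the highest at 1791 ± 94.7, and Foxa2, a floor plate and p3 factor, the lowest at 584 ± 54.0. Gli1 lay below 5 of the 14. No TSS interval of any of these lists passed the adjusted test between replicates. As 0 of all 119502 intervals passed it, this is not a trait of the lists. The median promoter density over coding genes with a TSS interval was 853 per kb.

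**Figure D4:**
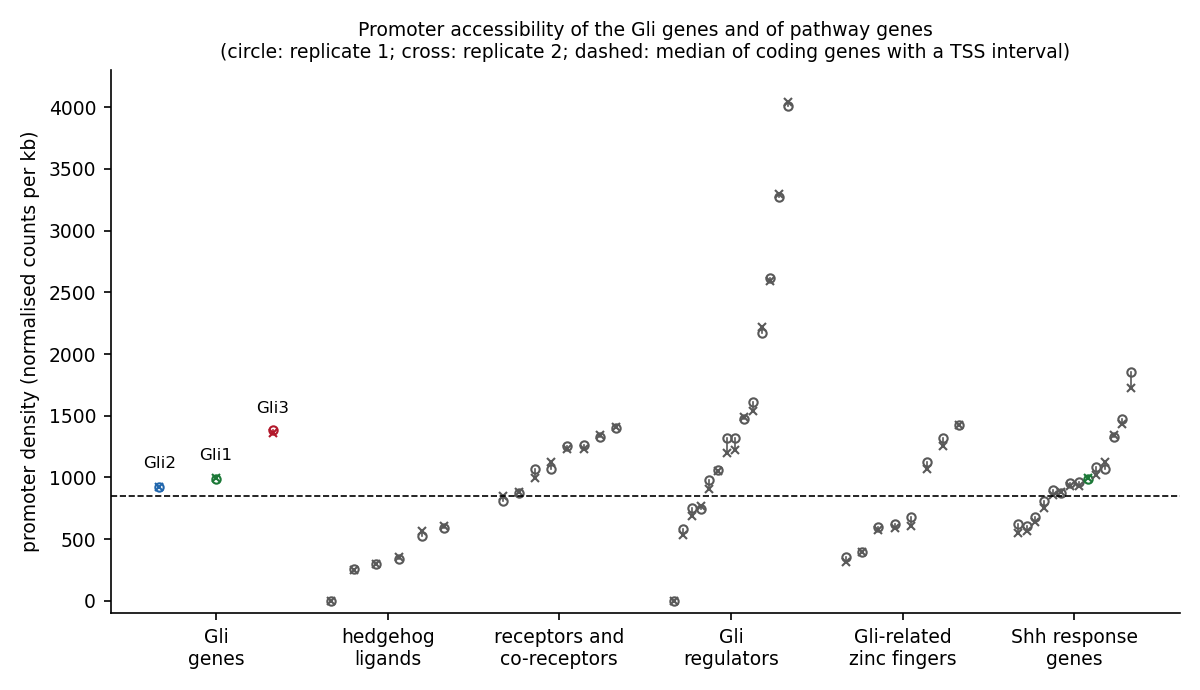
Promoter density in normalised counts per kb (y axis) of the Gli genes and of the genes of 5 pathway lists (x axis, sorted within each list), with replicate 1 as circles and replicate 2 as crosses. The Gli genes, from 922 to 1373, lie above every hedgehog ligand gene, and the dashed line is the median of coding genes with a TSS interval, 853.

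The genes most like each Gli gene were sought among 12305 coding genes by 3 measures, promoter density, number of intervals and median distal density, each as a standardised log2 value averaged over the 2 libraries. Gli1 was nearest to Ilkap, Mindy1 and Ipo9, at distances of 0.0351, 0.0363 and 0.0691. Gli2 was nearest to Wdfy3, Crim1 and Setbp1, at 0.116, 0.131 and 0.138. Gli3 was nearest to Etaa1, Itpr2 and Tbx3, at 0.0798, 0.115 and 0.119. Gli2 and Gli3 were 0.600 apart, and Gli1 was 3.48 from Gli2 and 3.44 from Gli3. Gli2 and Gli3 each had other genes nearer to them than they were to each other, and Gli1 had 2 intervals where they had 37 and 35.

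The 3 loci share a feature of gene order. Each Gli gene has a gene for an inhibin beta subunit as a neighbour, Inhbe at 6.88 kb from Gli1, Inhbb at 362 kb from Gli2 and Inhba at 282 kb from Gli3, with 0 annotated coding genes between. The upstream Gli2 intervals lie on the Inhbb side, and the Gli3 intervals upstream of the gene lie away from Inhba.

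The libraries had 31876165 counts in replicate 1 and 31672240 in replicate 2. The Gli intervals had from 6 to 3658 counts in a library, so that the promoters and strongest distal intervals were measured far more closely than the weak ones, and 31.1% of them had a mean over 100, against 38.8% of all intervals. Among the cell type markers, 7 of 7 pMN and shared progenitor markers, 5 of 6 p3 and floor plate markers, 6 of 6 new neuron markers and 2 of 6 markers of other lineages had a TSS interval, against 66.7% of all coding genes. These counts do not tell progenitor, p3 and neuron identities apart. Olig2 had 946 ± 23.2 per kb (SD, n = 2). The 2 markers of other lineages with an interval were Sox17, an endoderm gene, at 458 ± 28.2 and Myod1, a muscle gene, at 172 ± 9.96, and Alb, Cdh5, Ptprc and Gata1 had none.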

How the data were processed

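ATAC-seq was read from 2 libraries of 1 group. The values are raw fragment counts per consensus interval, which the authors deposited; they were made with featureCounts 2.0.1 at a minimum overlap fraction of 0.2, per the file header, on mm10 alignments with peaks from MACS that were merged over replicates. Fragments carried no molecular identifiers, so counting error alone is covered. The table held 3 further sample columns, not used here, whose peaks may have shaped the intervals.

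Size factors from DESeq2 (1.42.0) scaled the counts; edgeR (4.0.16) TMM factors were an alternative. Intervals were tested with scipy (1.17.1) by an exact binomial test, with Benjamini-Hochberg adjustment; the code was tested on simulated data. Log2 ratios of single intervals used a pseudocount of 1. Exons and introns are those of the transcript with the longest coding sequence.

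The Gli genes, gene lists and tests were chosen with earlier results of these data known. Named intervals were, for each gene, every TSS interval, the 3 densest distal ones and the one with the widest replicate ratio over a mean of 100; the lowest intervals, other dense distal intervals and those given for a motif were named after their values were seen. For each list the highest, lowest and absent promoters were named, except for 1 value that is not reported here, and for each Gli gene the 3 nearest genes by 3 measures.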

Additional observations from a re-analysis of the deposited data

How the results depend on the processing

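No paired analysis was possible because the labels give 1 group. Of 76 recomputed values, 60 stayed within the replicate SD, or within 1.5 times for counts, and 16 did not. This tally does not measure robustness. With 2 replicates, a value without 1 of them always lies within the SD. Counts per interval are in another unit than density, so those values could not be compared on that scale. The number of intervals of the series that differed between replicates was 0, 6 with TMM factors and 10029 at an unadjusted p under 0.05. Counts per interval in place of density gave 3642, 2103 and 2828 for the promoters of Gli1, Gli2 and Gli3, which changed their order. For the median distal interval they gave 161, 60.0 and 46.5, and the order changed there too. With a mean normalised count over 100, 10 intervals remained at Gli2 and 11 at Gli3. With a mean of at least 10 the median distal density of Gli3 was 135. Whole intervals in place of windows gave 5 matches for FOX, 22 for SOX, 34 for E-boxes and 8 for homeodomain cores. More bases were searched in intervals longer than a window, and fewer in shorter ones. The GLI core without its first base, added after seeing the data, gave 8 windows. Leaving out a replicate gave promoter densities of 988 to 996 for Gli1, 919 to 925 for Gli2 and 1363 to 1384 for Gli3. The locus ratios of replicate 2 to replicate 1, rescaled after seeing the data, are not among these; with TMM factors and total counts they were 0.00 and 0.02 at Gli1, 0.10 and 0.11 at Gli2, and 0.02 and 0.04 at Gli3. Weak intervals set the limit: a value from 6 counts is imprecise, and all values rest on 2 libraries of 1 condition.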
